A study of Homo sapiens with 12 samples.

Results

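The quantity described here is how the effect of deleting KDM5A and KDM5B differed between cisplatin-resistant and parental SKOV-3 cells. It was computed for each gene as the log2 change of the knockout in resistant cells minus the log2 change of the knockout in parental cells, and all 12 of the 12 libraries of the series entered it. SKOV-3 is an established human line of epithelial ovarian adenocarcinoma. The 4 groups, of 3 libraries each, were wild-type SKOV-3 without drug resistance, SKOV-3 with the double knockout of KDM5A and KDM5B, the cisplatin-resistant derivative SKOV-3 CDDP with a wild-type genotype, and SKOV-3 CDDP with the same double knockout. They are called parental, parental knockout, resistant and resistant knockout. All groups were grown in the same medium, and the labels name no cisplatin in it. The labels do not say how many clones the resistant line or the knockouts came from, nor whether the libraries of a group were separate cultures, so the p-values rest on the variation among these libraries, and that variation may be technical.

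KDM5A and KDM5B remove methyl groups from lysine 4 of histone H3, a mark that sits at the promoters of transcribed genes. Both are known mainly as repressors, and members of the family have been linked to drug-tolerant states of cancer cells. A difference above 0 means that the knockout effect was more positive in resistant cells, and one below 0 that it was more positive in parental cells. It compares changes, not levels, and a gene can reach a high difference while it stays far below its parental level.

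Total counts were 15659352 to 19706754 per library, and 17947 of 59498 genes passed the filter on low counts. KDM5A measured 30.9, 41.5 and 39.4 CPM (counts scaled to a common library total) in parental, 22.5, 20.9 and 15.6 in parental knockout, 39.9, 39.0 and 33.4 in resistant and 17.6, 14.8 and 12.0 in resistant knockout libraries. The knockout libraries lay below the controls in both backgrounds, and the difference of the effects was -0.41 ± 0.35 (SE, adjusted p = 1). For KDM5B, whose knockout and control libraries overlapped in both backgrounds, the difference was -0.33 ± 0.69 (adjusted p = 1), and the labels do not say where in the genes the edits lie. The untargeted paralog KDM5C gave 0.14 ± 0.35. For KDM5B and KDM5C the sign changed when some single libraries were left out. Of 10 markers of ovarian epithelial carcinoma, 7 to 10 reached 1 CPM in every library. Of 9 leukocyte markers only CD68 reached 1 CPM in any library, with group means of 54.2, 43.7, 12.0 and 16.1 CPM in parental, parental knockout, resistant and resistant knockout cells. Of 8 endothelial markers 0 to 2 reached 1 CPM in a library, and TIE1 had group means of 0, 0.119, 5.21 and 9.25 CPM in the same order. Mitochondrially encoded genes held 16.3% of the counts of parental knockout library 3 and 5.34% to 10.7% of the other 11.

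The effect of the knockout differed between the backgrounds for 5 genes at an adjusted p of 0.05, 0.0279% of all genes tested. All 5 were on the higher side and none (0%) on the lower side. They were CALB1, the hair keratin gene KRT81, SH2D4A and the long noncoding RNA genes LINC02582 and LINC00922. All 5 were also called higher for the knockout in resistant cells, against 0.212% of all genes tested. That effect is part of the difference, so this is partly built into the choice. None was called in parental cells, where no gene tested was called. By an unadjusted p under 0.05, which has no correction for the number of genes, 678 genes passed (3.78%), of which 416 (2.32%) were higher and 262 (1.46%) lower. DESeq2 called 60 genes higher and 7 lower, and limma-voom 5 and 0. In bulk RNA, fewer cells that make a transcript and less of it in each cell cannot be told apart.

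CALB1 encodes calbindin, a calcium buffer with EF-hand domains, on chromosome 8 (ENSG00000104327). It measured 284, 226 and 224 CPM in parental and 114, 254 and 339 in parental knockout libraries. In resistant cells it measured 0.292, 0.305 and 0.263 CPM, and in their knockout 9.50, 11.5 and 12.5. The parental groups overlapped, while each resistant knockout library lay above every resistant control. The knockout effect was -0.05 ± 0.33 (log2, SE) in parental and 5.25 ± 0.44 in resistant cells, a difference of 5.31 ± 0.55 (adjusted p = 0.00473). The resistant knockout mean was 4.56% of the parental mean.

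LINC02582 (ENSG00000261780, GRCh38 chromosome 18, 73324941 to 73349878, plus strand) measured 232, 271 and 213 CPM in parental and 86.9, 192 and 230 in parental knockout libraries. It measured 0.233, 0.426 and 0.210 CPM in resistant and 6.43, 7.92 and 12.4 in resistant knockout libraries. Here too only the resistant groups were apart. The difference was 5.41 ± 0.60 (adjusted p = 0.00494), and the resistant knockout reached 3.73% of the parental level.

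LINC00922 (ENSG00000261742, chromosome 16, 65284499 to 65576300, minus strand) had effects of opposite sign. It measured 2.51, 3.20 and 2.59 CPM in parental and 0.351, 0.774 and 0.287 in parental knockout libraries, a change of -2.55 ± 0.44. It measured 1.05, 1.58 and 1.58 CPM in resistant and 8.12, 8.64 and 9.64 in resistant knockout libraries, a change of 2.64 ± 0.42. The groups were apart in both backgrounds. The difference was 5.20 ± 0.60 (adjusted p = 0.00613), and the resistant knockout stood at 318% of the parental level. By the adjusted p over all genes, the resistant change passed (0.025) and the parental one did not (its unadjusted p was 6.17e-05). LINC00922 overlaps AC009055.1 on the opposite strand, and whether counting used strand is not given in the sources used here.

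KRT81 (ENSG00000205426, chromosome 12, 52285913 to 52291534, minus strand) was low in 3 groups and high in the fourth. It measured 0.239, 0.512 and 0.311 CPM in parental and 0.501, 0.968 and 0.517 in parental knockout libraries, which overlapped. It measured 2.28, 4.63 and 2.21 CPM in resistant and 86.4, 136 and 157 in resistant knockout libraries, which did not. The knockout effect was 0.89 ± 0.50 in parental and 5.38 ± 0.42 in resistant cells, and the difference 4.49 ± 0.65 (adjusted p = 0.0381). KRT81 overlaps the hair keratin gene KRT86 on the opposite strand and is nearly identical to KRT83, so these genes may share reads. KRT86 measured 4.20, 4.02 and 1.89 CPM in resistant and 14.2, 17.2 and 15.1 in resistant knockout libraries, and its difference of 2.23 ± 0.88 had an adjusted p of 1. KRT83 had a group mean of 1.23 CPM in the resistant knockout.

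SH2D4A encodes an SH2-domain adaptor, on chromosome 8 (ENSG00000104611). It measured 32.9, 50.7 and 39.0 CPM in parental and 21.1, 34.3 and 30.4 in parental knockout libraries, which overlapped. It had 0 reads in all 3 resistant libraries and 0.544, 0.941 and 1.61 CPM in their knockout. Set against 3 counts over the 3 resistant libraries, the resistant knockout was at least 17.4-fold higher. With the parental change taken without error, the difference of the effects was at least 4.63 (log2). This bound leaves out the spread among libraries. The adjusted p of 0.0381 belongs to the fitted difference of 7.69 ± 1.01. The level reached was 2.52% of the parental mean. The call for KRT81 did not hold, at adjusted p-values of 0.0654 to 0.206, when any single one of 8 libraries was left out: parental 2 and 3, parental knockout 1 and 3, resistant 1 and 3, and resistant knockout 2 and 3. That for SH2D4A did not hold, at 0.0577 to 0.133, without any of the same libraries, parental knockout library 2 or resistant library 2.

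**Figure D1:**
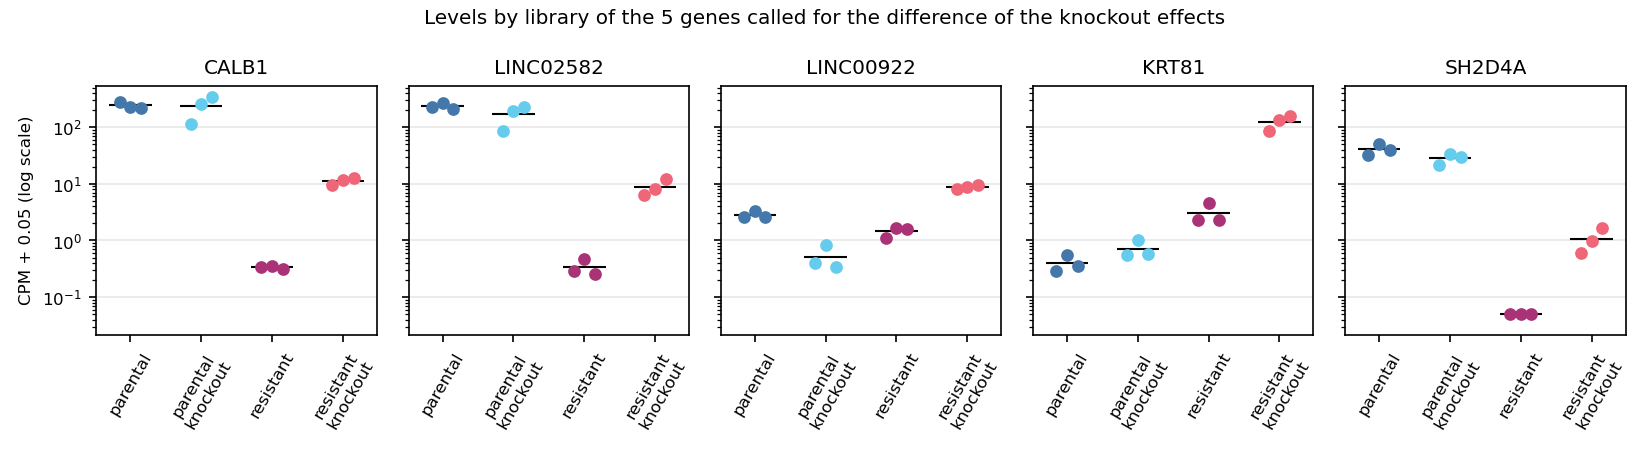
Level of the 5 called genes in each library, as CPM plus an offset of 0.05 on a log axis, for parental, parental knockout, resistant and resistant knockout cells; points are libraries and lines group means. CALB1, LINC02582 and SH2D4A are far lower in both resistant groups than in both parental groups, while KRT81 reaches 86.4 to 157 CPM in the resistant knockout and stays below 5 CPM elsewhere.

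Replicate numbers paired the libraries in the parental background, where same-numbered parental and parental knockout libraries deviated together. With that pairing as a block in the parental background, 26 genes were called higher (0.145% of those tested) and 2 lower (0.0111%), and the 5 genes above were among the 26. Of the 26, 22 were protein-coding, as were 13922 of the 17947 genes tested. For the knockout in resistant cells 15 of the 26 were also called, against 0.212% of all genes tested. In all 26 every resistant knockout library lay above every resistant one, against 8.02% of all genes tested. In 3 of the 26 every parental knockout library lay below every parental one, against 3.38% of all genes, and in none did all lie above (3.2% of all genes). These counts use the contrast by which the genes were called and describe it only. The counts of genes depended on single libraries: 3 genes were higher without parental library 3, 8 without parental knockout library 3, 12 without resistant knockout library 2, 13 without parental library 2, and 17 without parental library 1, parental knockout library 1 or resistant library 2, against 45 without resistant library 1.

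The 26 genes were alike in their levels, which share the control groups with the difference and are given as a description. In 25 of them the resistant cells were below the parental cells, KRT81 being the exception. The knockout left most of them low: the resistant knockout mean was under 10% of the parental mean in 18 genes, between 10% and 100% in 6 and above it in KRT81 and LINC00922. The median was 5.16% and the lowest value 1.22%, in G0S2, which encodes an inhibitor of triglyceride lipase. SLFN11 came nearest to the parental level among the other genes, at 48.8%.

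**Figure D2:**
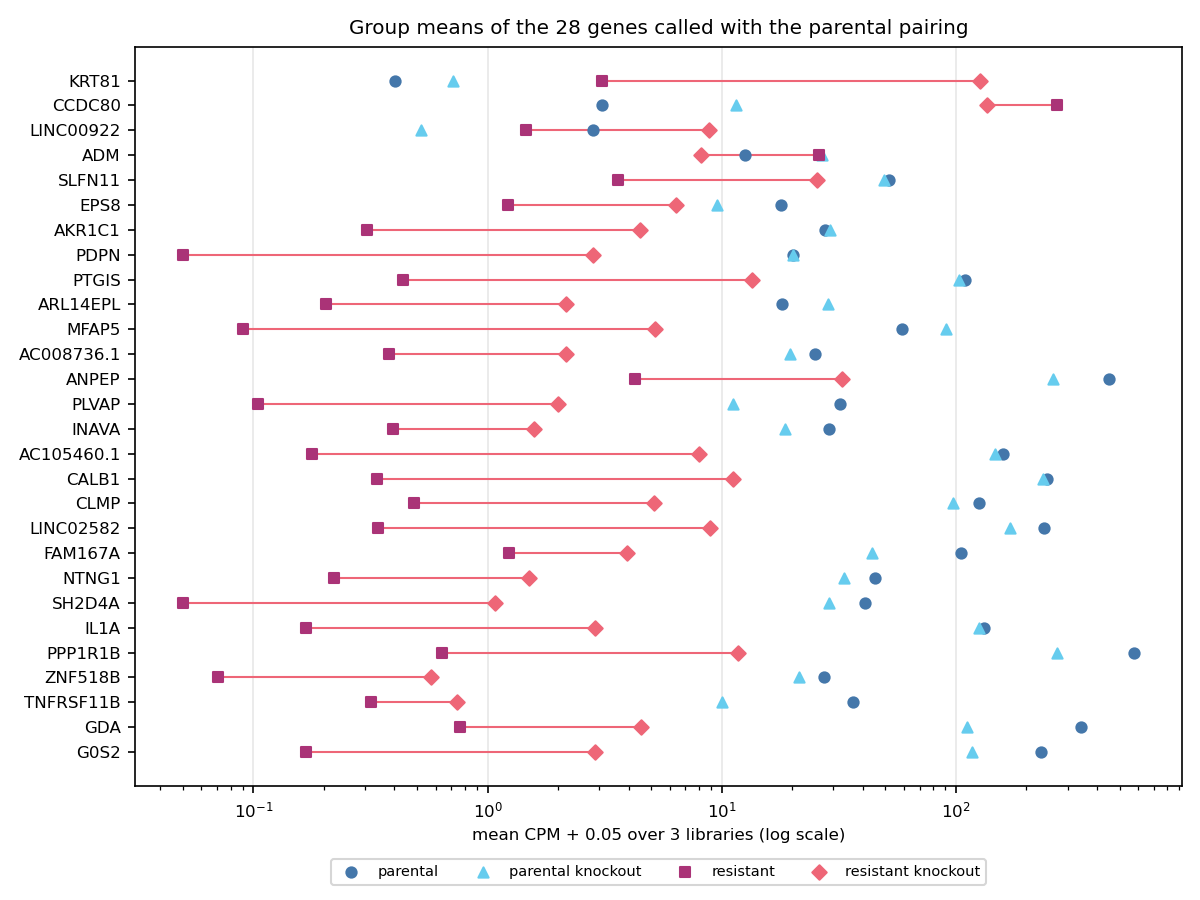
Mean CPM plus 0.05 over 3 libraries, on a log axis, of the 28 genes called with the parental pairing, sorted by the resistant knockout level as a share of the parental level; lines join resistant and resistant knockout means. The resistant knockout exceeds the resistant mean in the 26 genes called higher and is lower in ADM and CCDC80, and for 18 of the 26 it stays under 10% of the parental mean.

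SLFN11 (ENSG00000172716, chromosome 17, 35350305 to 35373701, minus strand) encodes a helicase-like protein that blocks stalled replication forks and is known as a determinant of the response to platinum drugs. It measured 40.5, 28.7 and 86.6 CPM in parental and 35.4, 27.5 and 84.9 in parental knockout libraries. It measured 2.33, 4.14 and 4.20 CPM in resistant and 24.4, 26.9 and 24.8 in resistant knockout libraries. The same-numbered parental libraries were close to each other while the numbers stood apart. The difference was 2.91 ± 0.66 with an adjusted p of 0.337 without the pairing, and 2.92 ± 0.32 with an adjusted p of 0.00571 with it. The list of genes for the repair of platinum lesions was drawn up to include SLFN11. No other of its 44 tested genes had an unadjusted p under 0.05, so 2.27% of the list were higher, against 2.32% of all genes.

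MFAP5, a microfibril-associated glycoprotein also among the 26, measured 45.6, 41.2 and 89.5 CPM in parental and 54.3, 66.8 and 151 in parental knockout libraries. It measured 0, 0.122 and 0 CPM in resistant and 3.37, 5.37 and 6.73 in resistant knockout libraries, 132 times as much (95% exact interval from the counts, 36.3 to 1098) (adjusted p for the difference 0.0658 without the pairing and 0.0072 with it). PDPN, podoplanin, had no reads in resistant libraries and 1.78, 1.94 and 4.57 CPM in their knockout, at least 46.7-fold higher, while parental libraries held 16.3, 15.6 and 28.6 and parental knockout libraries 10.9, 16.3 and 33.2. In both genes the parental groups overlapped and the resistant groups did not. For PDPN the difference, bounded in the same way as for SH2D4A, was at least 5.55. The fitted difference had an adjusted p of 0.0658 without the pairing and 0.0177 with it. CLMP, an adhesion protein of cell junctions, had a difference of 4.05 ± 0.48 with the pairing (adjusted p = 0.00775, and 0.142 without it). ANPEP, aminopeptidase N, had 3.95 ± 0.52 with the pairing (adjusted p = 0.0151, and 0.635 without it).

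PTGIS, prostacyclin synthase and also among the 26, measured 64.6, 77.4 and 187 CPM in parental and 35.7, 53.2 and 220 in parental knockout libraries, and 0.584, 0.366 and 0.210 in resistant against 11.4, 14 and 14.8 in resistant knockout libraries. Its difference with the pairing was 5.49 ± 0.45 (adjusted p = 0.00206, and 0.142 without the pairing). GDA, guanine deaminase, measured 192, 557 and 280 CPM in parental and 53.4, 165 and 116 in parental knockout libraries, and 1.11, 0.244 and 0.788 in resistant against 4.06, 3.93 and 5.37 in resistant knockout libraries. It was thus lower in every parental knockout library than in any parental one. In resistant cells it was higher in every knockout library than in any control. Its difference was 4.24 ± 0.50 with the pairing (adjusted p = 0.00775, and 0.122 without it). PPP1R1B, an inhibitor of protein phosphatase 1, had 5.57 ± 0.72 with the pairing (adjusted p = 0.0129, and 0.265 without it). The aldo-keto reductase AKR1C1 had 4.07 ± 0.59 with the pairing (adjusted p = 0.0214, and 0.549 without it). AKR1C1 may share reads with near-identical AKR1C2.

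IL1A, the cytokine interleukin 1 alpha, measured 176, 203 and 16.8 CPM in parental and 144, 222 and 10.4 in parental knockout libraries. In resistant libraries it measured 0.0584, 0.244 and 0.0526 CPM, and in their knockout 2.97, 2.94 and 2.53. Parental pairs of the same number were close, while libraries numbered 3 lay far below the others. The difference was 4.81 ± 0.50 with the pairing (adjusted p = 0.00389) and had an adjusted p of 1 without it. TNFRSF11B, a decoy receptor of the tumour necrosis factor family, had 3.31 ± 0.53 with the pairing (adjusted p = 0.0442). Without the pairing even its unadjusted p was 0.0862. Its mean was 0.269 CPM in resistant and 0.690 in resistant knockout libraries. EPS8, an adaptor that acts on actin, had 3.33 ± 0.49 with the pairing (adjusted p = 0.0234, and 0.098 without it).

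The 2 genes called lower with the pairing were ADM and CCDC80. ADM, which encodes the vasodilator peptide adrenomedullin, measured 22.1, 8.77 and 6.57 CPM in parental and 45.1, 21.7 and 13.6 in parental knockout libraries. It measured 21.9, 18.3 and 37.4 CPM in resistant and 6.93, 7.31 and 10.0 in resistant knockout libraries. ADM was thus higher in the knockout within each parental pair and lower in every resistant knockout library than in any resistant one. Its difference was -2.81 ± 0.41 with the pairing (adjusted p = 0.0214, and 0.484 without it). CCDC80, a secreted matrix-associated protein, measured 1.14, 2.69 and 5.23 CPM in parental and 1.95, 11.2 and 21.1 in parental knockout libraries, and 292, 278 and 241 in resistant against 112, 149 and 147 in resistant knockout libraries. Its difference was -2.69 ± 0.37 with the pairing (adjusted p = 0.0177, and 0.796 without it). No gene was called lower when any single one of 6 libraries was left out (parental 2 and 3, parental knockout 2 and 3, resistant knockout 1 and 2), 1 without resistant library 2, 5 without parental or parental knockout library 1, and 6 without resistant library 1.

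Since KDM5 proteins act at promoters, RefSeq promoter sequences (GRCh38.p14, 250 bases before to 50 after the start) were read. They were sought for the 28 genes, except those named after the sequences as left out. Entries were matched for 13, and 8 of these had a single start. The sequences of 5 are printed because they stand for genes that differed in either direction, with and without a motif. The motif CCGCCC, which the ARID domain of KDM5A is known to bind, was searched on both strands, and its letters or those of its reverse complement GGGCGG are in capitals. SLFN11 lies at chr17:35373572-35373871 (minus strand), GDA at chr9:72149190-72149489 (plus), G0S2 at chr1:209675162-209675461 (plus), ADM at chr11:10304823-10305122 (plus) and CCDC80 at chr3:112641094-112641393 (minus). Each is written 5′ to 3′ on the strand of its gene.
SLFN11: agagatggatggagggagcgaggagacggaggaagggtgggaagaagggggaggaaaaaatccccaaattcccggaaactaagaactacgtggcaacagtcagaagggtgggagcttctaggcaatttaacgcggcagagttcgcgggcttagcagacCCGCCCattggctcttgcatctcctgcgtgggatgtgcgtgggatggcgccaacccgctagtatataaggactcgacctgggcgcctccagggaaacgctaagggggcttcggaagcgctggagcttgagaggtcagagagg
GDA: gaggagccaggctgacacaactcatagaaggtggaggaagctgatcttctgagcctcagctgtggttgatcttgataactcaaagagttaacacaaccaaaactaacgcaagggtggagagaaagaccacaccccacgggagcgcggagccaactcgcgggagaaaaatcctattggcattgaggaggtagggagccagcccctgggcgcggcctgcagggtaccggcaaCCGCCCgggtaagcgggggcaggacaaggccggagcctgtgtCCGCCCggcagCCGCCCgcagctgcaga
G0S2: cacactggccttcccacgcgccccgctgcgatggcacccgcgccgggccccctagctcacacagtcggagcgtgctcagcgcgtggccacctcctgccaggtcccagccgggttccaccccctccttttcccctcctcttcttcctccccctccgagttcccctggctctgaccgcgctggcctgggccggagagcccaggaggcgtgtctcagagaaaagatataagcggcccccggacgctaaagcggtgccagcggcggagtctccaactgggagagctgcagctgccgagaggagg
ADM: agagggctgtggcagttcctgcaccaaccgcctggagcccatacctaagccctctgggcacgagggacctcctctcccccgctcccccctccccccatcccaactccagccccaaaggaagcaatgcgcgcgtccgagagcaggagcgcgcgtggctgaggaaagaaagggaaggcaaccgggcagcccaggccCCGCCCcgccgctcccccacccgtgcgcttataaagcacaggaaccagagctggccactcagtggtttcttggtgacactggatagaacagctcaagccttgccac
CCDC80: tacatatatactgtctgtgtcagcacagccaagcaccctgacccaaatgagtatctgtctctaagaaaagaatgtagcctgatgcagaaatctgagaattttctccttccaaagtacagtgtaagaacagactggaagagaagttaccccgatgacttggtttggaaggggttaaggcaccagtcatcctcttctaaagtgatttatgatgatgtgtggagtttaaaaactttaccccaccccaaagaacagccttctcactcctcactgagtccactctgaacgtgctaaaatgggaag

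Of the 8 promoters, 4 held the motif on either strand (ADM, GDA, SLFN11 and ZNF518B), and of 35116 promoters of the same length 45.0% did. The GDA window held it 3 times and those of SLFN11 and ADM 1 time each. The number of CpG sites ran from 2 in CCDC80 to 35 in ZNF518B, with a median of 17, against a median of 14 over all promoters. The motif stood in windows of genes on both sides of the difference, and a match is a run of letters, not a measured site. CALB1, SH2D4A, FAM167A and TNFRSF11B were left out before matching, so the counts do not cover them. LINC02582, LINC00922 and KRT81 had no matched entry. None of the 5 genes called without the pairing is thus among the 13 matched.

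Beyond single genes, the shape of the difference was described with 191 genes that had an unadjusted p under 0.01 (1.06%), 149 higher (0.83%) and 42 lower (0.234%). These are not calls, since the p-values carry no correction. Of the 149 on the higher side, 117 (78.5%) had an unadjusted p under 0.05 for the knockout in resistant cells alone, 21 (14.1%) in both backgrounds with opposite signs, 9 in parental cells alone and 2 in both with the same sign. Of the 42 on the lower side, 26 (61.9%) had it in parental cells alone, 10 (23.8%) in resistant cells alone and 6 in both with opposite signs. Over all genes tested, 7.95% had an unadjusted p under 0.05 in resistant and 3% in parental cells. Both effects make up the difference by which the genes were chosen, so small p-values in them are partly built into the choice. Without parental library 1 or parental knockout library 2 the lower side held 87 or 71 genes, and without parental library 2, resistant knockout library 1 or resistant knockout library 3 it held 21, 26 or 27. When libraries were scaled by size alone, 168 genes were higher and 23 lower.

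The levels of the 2 sides were unlike each other. Among the 149 genes, 113 were lower in resistant knockout than in parental cells, 59 of them at under 10% of the parental mean, and 106 had a mean below 1 CPM in resistant cells. Among the 42 genes, 39 were at or above the parental level in resistant cells, and 23 had a parental mean below 1 CPM. No like counts were made over all genes tested, so these levels are not shown to be particular to either side. Each control group enters both the difference and these levels, so this is a description with no test.

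**Figure D3:**
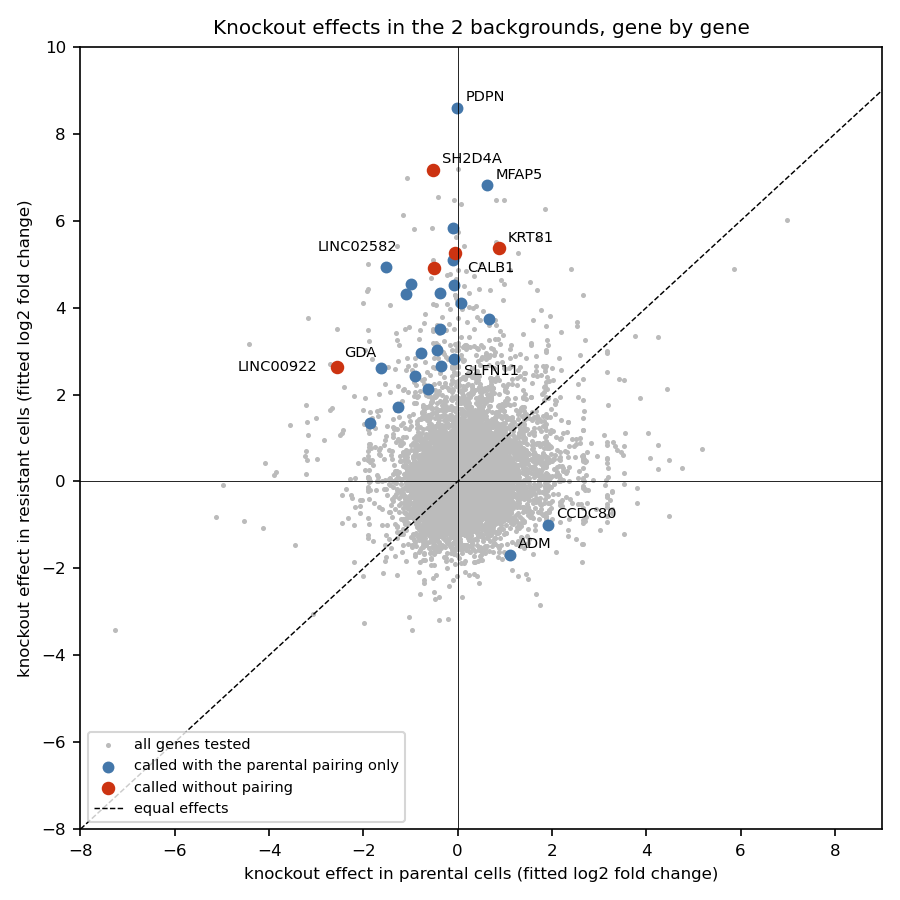
Fitted log2 knockout effect of each of 17947 genes in parental cells (horizontal axis) and resistant cells (vertical axis), with the 5 genes called without pairing and the 23 called only with the parental pairing in colour; the dashed line marks equal effects. Coloured genes lie mostly above the line near a parental effect of 0, with ADM and CCDC80 under it; for genes with no reads in resistant cells, such as PDPN and SH2D4A, the plotted value depends on the fit's prior count.

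Each effect was also tested on its own. The knockout called 0 genes in parental cells (0%), with 539 (3%) at an unadjusted p under 0.05, 11 by DESeq2 and 1 by limma-voom. In resistant cells it called 38 genes, all higher (0.212%) and none lower (0%), with 1426 (7.95%) at an unadjusted p under 0.05. That count was 7, 5 and 4 without resistant library 1, 2 and 3, and 8, 9 and 17 without resistant knockout library 1, 2 and 3. Resistant knockout libraries lay wholly below resistant ones in 7.17% of genes. Across the 17947 genes the 2 effects, which share no library, had a Pearson correlation of 0.13 and a Spearman correlation of 0.17, given as a description.

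Of the 38 genes that rose in resistant cells, 5 were called for the difference (0.0279% of all genes tested). With the parental pairing 15 were called higher (0.145% of all genes), and 29 had an unadjusted p under 0.01 for it without the pairing (1.06%). The effect in resistant cells is part of the difference, so these overlaps are partly built into the choice. In 8 of the 38 the unadjusted p for the difference was 0.05 or more, which does not show equal effects. In 7 of the 38 every parental knockout library also lay above every parental one, as in 3.2% of all genes. HAPLN1, a link protein of hyaluronan matrix, measured 0.239, 0.256 and 0.362 CPM in parental and 0.601, 2.52 and 2.07 in parental knockout libraries, and 5.60, 10.8 and 4.68 in resistant against 97.0, 131 and 39.4 in resistant knockout libraries. Its difference was 1.13 ± 0.88 (adjusted p = 1). LCP1, an actin-bundling plastin, had an effect of 2.60 ± 0.61 in parental and 2.91 ± 0.51 in resistant cells, a difference of 0.31 ± 0.91 (adjusted p = 1). CST6, a secreted cystatin, had 1.56 ± 0.46 and 3.14 ± 0.33, a difference of 1.58 ± 0.59 (unadjusted p = 0.019, adjusted p = 1).

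The 8 largest fitted folds in resistant cells were those of PDPN, SH2D4A, MFAP5, MARVELD1, LINC02323, ANKRD20A9P, DSCAM and SPANXB1, all with 0 to 2 counts over the resistant libraries. MARVELD1 was at least 9.98-fold and the noncoding RNA gene LINC02323 at least 15.8-fold higher in the resistant knockout. With the parental change taken without error, their differences were at least 3.24 and 5.06. The fitted differences had adjusted p-values of 0.207 and 0.0658. The parental change of LINC02323 rests on 41 counts in parental and 20 in parental knockout libraries. SPANXB1, a cancer-testis gene with close copies, had no reads in either parental group, and 2.57, 2.94 and 5.93 CPM in the resistant knockout, 194 times the resistant level (95% exact interval from the counts, 34.4 to 7703), so its difference has no usable error. DSCAM, a neuronal adhesion gene, was 106 times higher (18.7 to 4232), with a single read in a parental knockout library. The pseudogene ANKRD20A9P, which may share reads with its copies, was 88.8 times higher (15.6 to 3546) in the resistant knockout. It also went from no reads in parental libraries to 0.601, 1.23 and 0.862 CPM in their knockout, so it was higher in both backgrounds without overlap.

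Among the protein-coding genes with at least 5 CPM in some group, the 12 on each side with the smallest p for the difference were read in full. On the higher side were CALB1, KRT81, SH2D4A, MFAP5, PDPN, EPS8, GDA, CLMP, PTGIS, CCDC68, THBD and G0S2. CCDC68 stood apart from the others in its levels: it measured 8.30, 6.92 and 6.78 CPM in parental and 2.51, 2.45 and 3.50 in parental knockout libraries, and 6.42, 8.77 and 5.52 in resistant against 18.0, 15 and 11.1 in resistant knockout libraries. The controls of both backgrounds were thus alike in level, and the knockout libraries lay below them in parental and above them in resistant cells, with a difference of 2.46 ± 0.45 (adjusted p = 0.142). THBD, the anticoagulant receptor thrombomodulin, had -1.81 ± 0.56 in parental and 2.82 ± 0.66 in resistant cells (adjusted p for the difference 0.153).

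None of the 12 genes on the lower side passed without the pairing, and the smallest adjusted p among them was 0.337, for ZNF540. ZNF540, a KRAB zinc finger gene, measured 3.70, 3.59 and 5.38 CPM in parental and 9.22, 12.7 and 8.79 in parental knockout libraries, and 7.06, 9.50 and 10.4 in resistant against 4.85, 6.15 and 2.84 in resistant knockout libraries. Groups were apart in both backgrounds, in opposite directions, with a difference of -2.23 ± 0.51. It overlaps ZFP30 and ZNF571 on the opposite strand and ZNF571-AS1 on the same strand. The zinc finger gene ZNF781 on the same chromosome, which overlaps ZFP30 on the same strand, had a difference of -1.88 ± 0.50 (adjusted p = 0.493).

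In 9 of the 12 the fitted effect was larger in size in parental than in resistant cells. CCL2, a chemokine that attracts monocytes, measured 0.299, 0.256 and 0.104 CPM in parental and 8.57, 5.74 and 3.79 in parental knockout libraries. In resistant cells it measured 0.233, 0.122 and 0 CPM, and in their knockout 0.198, 0.166 and 0.0618. The parental groups were apart and the resistant groups overlapped, with a difference of -4.45 ± 1.19 (adjusted p = 0.507). EDN2, the vasoconstrictor endothelin 2, had an effect of 3.28 ± 0.67 in parental and -0.23 ± 0.53 in resistant cells (adjusted p for the difference 0.408), and GDF6, a ligand of the bone morphogenetic protein family, 2.17 ± 0.48 and -0.54 ± 0.43 (adjusted p = 0.349). In FLRT2, ABCC8, FAM155B and TCF4 the parental knockout libraries stayed below 1 CPM, so their fitted parental effects rest on few reads. In SYNPO2, ADM and ZNF781 the resistant effect was the larger and only the resistant groups did not overlap. SYNPO2, an actin-binding protein of muscle, measured 26.9, 29.4 and 19.97 CPM in resistant and 8.96, 7.20 and 5.25 in resistant knockout libraries, with a difference of -2.26 ± 0.57 (adjusted p = 0.44). PSG5, whose reads may be shared with its gene family, had -3.59 ± 0.97 (adjusted p = 0.549).

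**Figure D4:**
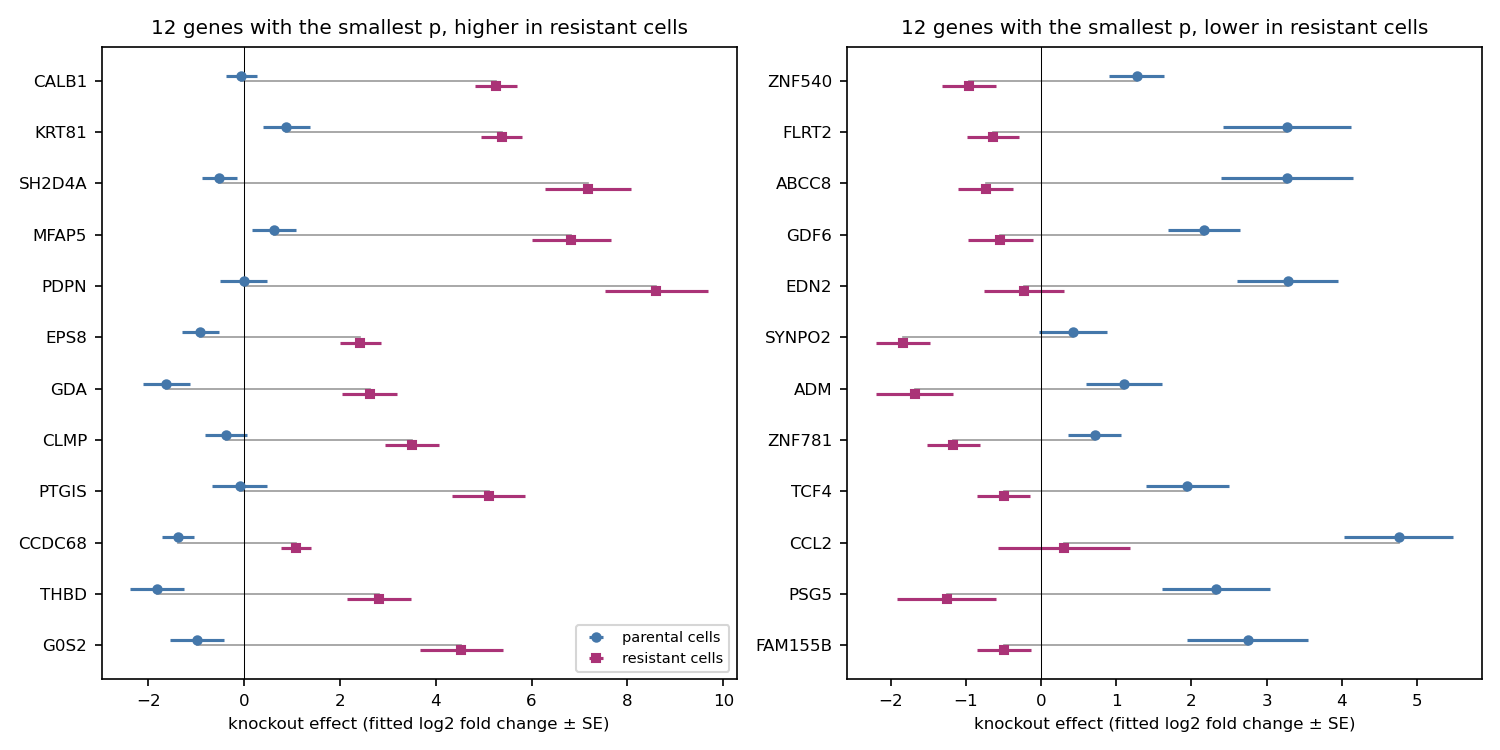
Fitted knockout effects (log2 ± SE over 3 libraries a group) in parental and resistant cells for the 12 protein-coding genes with the smallest p on each side of the difference. On the left the resistant effects lie above 0 and the parental ones at or under 0 except in KRT81 and MFAP5, and on the right the parental effects lie above 0 and most resistant ones under it; fitted values of genes with no reads in a group depend on the prior count.

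Gene lists were described by counts and medians beside the same over all 17947 genes, for which the median difference was 0.01 and 50.8% lay above 0. Of the 13 keratin genes tested, which build the intermediate filaments of epithelia, KRT81 was called (adjusted p = 0.0381) and 4 had an unadjusted p under 0.05, all higher, against 2.32% of all genes. The median difference was 1.50, and 0.51 without parental library 2 or 2.31 without parental knockout library 2. This median was the value of KRT83 (1.50 ± 1.19, unadjusted p = 0.229), a gene of low level that may share reads with KRT81. KRT19, a keratin of simple epithelia, measured 62.8, 136 and 258 CPM in parental and 55.1, 101 and 227 in parental knockout libraries, and 1.23, 3.11 and 0.420 in resistant against 13.6, 18.4 and 20.6 in resistant knockout libraries. Its difference was 3.73 ± 0.94 (adjusted p = 0.436). KRT8 and KRT18, a pair of simple-epithelial keratins, had differences of -0.28 ± 0.53 and -0.20 ± 0.60.

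Of 20 tested genes of the ovarian carcinoma lineage, 4 (20%) had an unadjusted p under 0.05, all higher, against 2.32% of all genes. None passed the adjusted threshold. The median difference was 1.11, and 1.68 without parental knockout library 3 or 1.87 without resistant library 1. MSLN, the surface antigen mesothelin, measured 29.2, 41.1 and 40.9 CPM in parental and 9.47, 24.7 and 36.6 in parental knockout libraries, and 1.17, 0.366 and 0.368 in resistant against 2.57, 4.76 and 3.71 in resistant knockout libraries. Its difference was 3.18 ± 0.73 (adjusted p = 0.344). The other 3 were SLPI, a protease inhibitor, with 2.99 ± 1.33, FOLR1, the folate receptor, with 2.23 ± 1.02, and MECOM, a transcription factor, with 1.13 ± 0.49. Among 28 epithelial junction genes 3 were higher (10.7%) and 1 lower (3.57%) at that p, against 2.32% and 1.46% of all genes. The claudin CLDN7 had a difference of 3.08 ± 0.73 (adjusted p = 0.349). Of 14 prostaglandin genes 3 (PTGIS, PTGDS and PLA2G4A) were higher, 21.4% against 2.32% of all genes, and none lower.

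Genes of the stress response were mostly below 0, in 21 of 31 tested. Of these 31 genes of the unfolded protein and integrated stress response none was higher and 4 were lower at an unadjusted p under 0.05, against 1.46% of all genes, and none passed the adjusted threshold. These 4 were SDF2L1 (-1.54 ± 0.51), MANF (-1.26 ± 0.46), HERPUD1 (-1.22 ± 0.55) and DNAJB11 (-1.03 ± 0.41), which act in the folding or disposal of proteins in the endoplasmic reticulum. MANF measured 53, 68.8 and 68.3 CPM in parental and 44.5, 68.6 and 97.3 in parental knockout libraries, and 251, 368 and 432 in resistant against 116, 196 and 174 in resistant knockout libraries. The resistant knockout libraries were all below the resistant ones and all above the parental ones. The median difference of the list was -0.49, and -0.08 without parental knockout library 2 or -0.77 without parental knockout library 1.

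At an unadjusted p under 0.05, 2 of 26 cholesterol synthesis genes (HSD17B7 and FDPS, 7.69%) were lower, against 1.46% of all genes. None passed the adjusted threshold. The median difference of the list was -1.07, with 24 of the 26 below 0. A single control library moved with this median. DHCR7, the last enzyme of one branch of the pathway, measured 606 CPM in resistant library 1 and 75.9 and 107 in resistant libraries 2 and 3, against 40.9, 62.0 and 72.8 in the resistant knockout. Without resistant library 1 the median of the list was -0.37, and without parental knockout library 3 it was -0.70. Mitochondrially encoded genes had a median of -1.05, and -0.44 without parental knockout library 3, the library with the high mitochondrial share. All 13 lay below 0, 3 of them (23.1%) at an unadjusted p under 0.05, against 1.46% of all genes.

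Among 29 genes of the transforming growth factor beta and bone morphogenetic protein pathways, 2 were higher (6.9%) and 5 lower (17.2%) at an unadjusted p under 0.05. Over all genes tested these shares were 2.32% and 1.46%, and none of the 29 passed the adjusted threshold. The ligand genes TGFB2 (-1.49 ± 0.57) and INHBA (-1.52 ± 0.69) were among the lower ones, as were FSTL1 (-2.06 ± 0.81) and BMP7, while FST, an antagonist of activin, had 3.54 ± 1.03 and ID4 1.12 ± 0.51. The median difference was -0.27, between -0.43 and -0.03 as each library was left out.

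None of the genes on the lists for platinum transport, NRF2 and glutathione, or apoptosis was called at the adjusted threshold, with or without the pairing, except AKR1C1 with it. At an unadjusted p under 0.05, 2.32% of all genes tested were higher and 1.46% lower. Of 23 platinum transport and metallothionein genes 2 were higher (8.7%) and 1 lower, the lower being LRRC8B, a subunit of volume-regulated anion channels, with -1.09 ± 0.46. Of 33 NRF2 and glutathione genes 3 were higher (9.09%): AKR1C1, AKR1C2 and FTH1, ferritin heavy chain, whose difference was 1.59 ± 0.56 (adjusted p = 1) and which may share reads with its pseudogenes. Among 27 apoptosis regulators only PMAIP1, the BH3-only protein NOXA, passed that p: it measured 54.5, 83.3 and 64.9 CPM in parental and 43.2, 94.5 and 43.3 in parental knockout libraries, and 18.6, 19.7 and 24.8 in resistant against 60.9, 45.1 and 50.4 in resistant knockout libraries. The resistant groups did not overlap, and the difference was 1.47 ± 0.45 (adjusted p = 0.75). Among 28 AP-1 and immediate early genes 2 were higher (7.14%) and none lower at that p. One was JUNB, a subunit of the AP-1 transcription factor, which measured 90.5, 130 and 100.4 CPM in parental and 62.8, 78.6 and 74.4 in parental knockout libraries, and 53.5, 92.8 and 41.5 in resistant against 133, 110.0 and 106 in resistant knockout libraries. Its groups were apart in both backgrounds, in opposite directions, with a difference of 1.47 ± 0.41 (adjusted p = 0.635). None of 26 p53 target genes, 40 replication genes, 39 interferon-stimulated genes or 46 oxidative phosphorylation genes had an unadjusted p under 0.05, nor did any of 56 ribosomal protein genes. Of these 50 lay above 0 with a median of 0.36, and the median was 0.20 without parental library 2 or parental knockout library 3, 0.14 without resistant library 1, 0.55 without resistant library 2 and 0.07 without resistant knockout library 3.

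Summed levels of fibroblast markers differed between the groups. The sum was 1.97 to 8.80 CPM in parental, 2.56 to 28.7 in parental knockout, 350.0 to 960 in resistant and 2527 to 4470 in resistant knockout libraries. Of the 8 fibroblast markers tested, 7 lay above 0 for the difference, with a median of 0.94, and none had an unadjusted p under 0.05 for it. Their median effect was 0.96 in parental and 2.67 in resistant cells. Group means went from resistant to resistant knockout cells from 671 to 3651 CPM for COL1A1, 2.27 to 42.5 for COL3A1, 2.97 to 25.4 for COL1A2, 1.53 to 15.6 for LUM and 0.878 to 2.57 for PDGFRB. PDGFRA went from 3.90 to 2.26 CPM, while DCN, FAP and THY1 stayed below 1 CPM in both. The difference for COL1A1, most of the sum, was 0.67 ± 1.30 (unadjusted p = 0.614). Of 40 matrix and mesenchymal genes 2 were higher (5%) and 1 lower (2.5%) at an unadjusted p under 0.05, against 2.32% and 1.46% of all genes. Whether other cells were present was not tested.

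**Figure D5:**
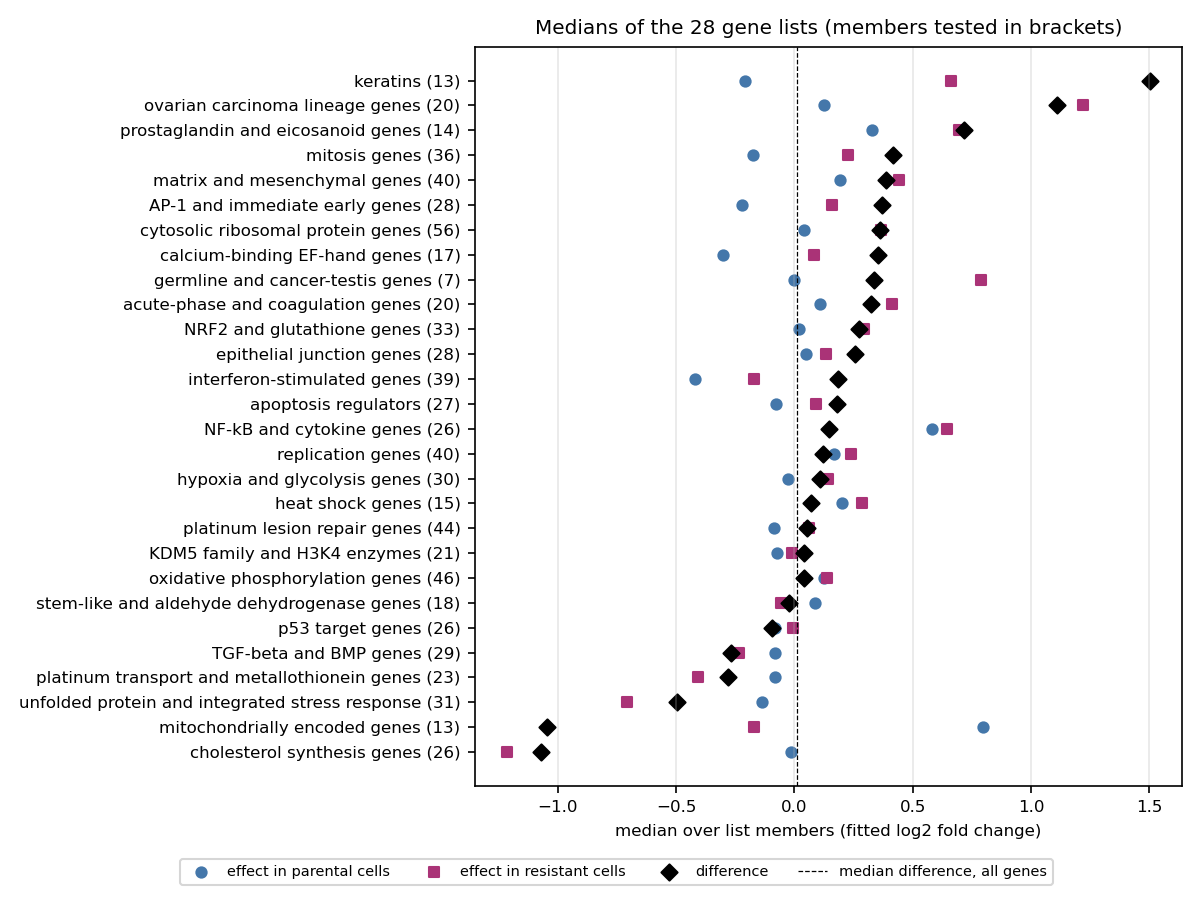
Median fitted log2 knockout effect in parental cells, in resistant cells, and the median difference, for 28 gene lists with the number of members tested in brackets; the dashed line is the median difference of all 17947 genes (0.01). Keratins (1.50) and ovarian lineage genes (1.11) have the highest median differences and cholesterol synthesis (-1.07) and mitochondrially encoded genes (-1.05) the lowest.

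A last description concerns genes that the resistant line had all but lost. Of the genes tested, 13 had at least 20 CPM in parental cells and at most 3 counts over the 3 resistant libraries, among them MFAP5, PDPN, SH2D4A, MARVELD1 and ZNF518B. In the resistant knockout all 13 had reads. These genes were chosen for few counts in the resistant libraries, so higher counts in another group are partly built into the choice. No like count was made over other genes. The levels were 0.203% (KRT5) to 13.7% (PDPN) of the parental mean, with a median of 1.91% (medians of 1.33%, 1.69% and 1.97% in libraries 1, 2 and 3). Some of these levels rest on few reads, such as 4 counts for KRT5. IL6, a cytokine gene, had 2 counts in resistant and 43 in resistant knockout libraries, 0.626% of its parental level.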

How the data were processed

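The authors deposited raw read counts per gene for 12 libraries. A directional kit was applied to poly(A) RNA, per the labels' protocols. STAR 2.7.10a, featureCounts 2.0.1, Trim Galore 0.6.10 and the build GRCh38 are named in the submitters' processing notes. Annotation and strand setting are not stated in the sources used here, so overlapping, antisense and near-identical genes may share reads. The table held 59542 rows and 59498 identifiers, since 44 identifiers stood on 2 rows that held 0 reads. A deposited duplicate of the table matched it exactly in 833588 cells and was left out. Column names were matched to samples by the labels, except for resistant replicates 2 and 3. Their headers read CDDK_NT_2 and CDDK_NT_3 where the labels give CDDP_NT_2 and CDDP_NT_3. They were assigned because no other sample's label matched. Biotypes and coordinates are from GENCODE 29 on GRCh38.

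Genes were filtered with filterByExpr and scaled with TMM, and 17947 were tested with edgeR 4.0.16 (R 4.3.3; robust quasi-likelihood test, a mean per group, Benjamini-Hochberg adjustment over all genes at 0.05). This is the test behind every adjusted p for which no other tool is given. An SE is the absolute log2 change divided by the square root of F. Levels are CPM of the effective library size. With 0 counts in a group, folds are bounds against 3 counts over its 3 libraries; with 1 to 3 counts they are ratios with a 95% exact interval. Neither allows for the spread among libraries, and the bounds allow only for counting error in the group with 0 counts. A bound on the difference subtracts the log2 ratio of the parental group means without its error. The p-values beside bounds are those of the fitted differences. Scripts were tested on simulated counts.

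Same-numbered libraries correlated, as deviations from group means across genes, at 0.66, 0.77 and 0.78 in the parental background and at 0.57, -0.19 and 0.64 in the resistant one. The numbers were therefore taken to pair the parental libraries only, a choice read from these same data. Libraries of a group differed beyond sampling noise (24.1 to 194.7 for chi-square over its degrees of freedom), and none was counted as a duplicate.

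Named genes were those called, the 12 protein-coding genes with the smallest p per side at 5 CPM or more, up to 2 members per list at a p under 0.01, the KDM5 genes, and the 8 largest folds in resistant cells. Genes called with the pairing, the 13 genes near 0 in resistant cells, and other list members were chosen after their values were seen. The members and the gene lists were chosen with earlier results of these data known. Alternatives were other scalings and filters, DESeq2 1.42.0, limma-voom (limma 3.58.1), 3 forms of the replicate block and leaving out each library. Leaving out libraries with the parental block was added after seeing the data. A list member is not reported here.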

Additional observations from a re-analysis of the deposited data

Results flagged for a closer look

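The knockout effects of resistant and parental cells differed, by edgeR's quasi-likelihood test of the difference itself, in 5 genes. The log2 difference was 5.31 for CALB1, 5.41 for LINC02582, 5.20 for LINC00922 and 4.49 for KRT81. For SH2D4A it was at least 4.63 with the parental change taken without error. In LINC00922 the effects had opposite signs (-2.55 in parental and 2.64 in resistant cells). In CALB1, LINC02582 and SH2D4A the resistant knockout stayed at 4.56%, 3.73% and 2.52% of the parental level.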

How the results depend on the processing

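CALB1, LINC02582 and LINC00922 were called under all 22 alternatives run. KRT81 was not called in 10 and SH2D4A in 11, in the directions reported. For the difference, genes called higher numbered 11 with library size alone, 115 with a filter of 1 count, 60 with DESeq2, and 10 without both parental-background libraries numbered 3. Genes called lower numbered 46 with the filter of 1 count and 7 with DESeq2. For the knockout in parental cells 83 genes were called with the filter of 1 count, 11 with DESeq2 and 1 with limma-voom. For the knockout in resistant cells the counts were 451, 249 and, without both parental-background libraries numbered 3, 66. The cause was not tested. With the replicate number as a block in parental cells, 26 genes were higher and 2 lower, and 141 were called for the knockout in resistant cells. As a block shared by all groups it gave 18 higher for the difference and 1 in parental cells. As a block within each background it gave 210 higher, 64 lower, 154 in parental and 939 in resistant cells. In the resistant background the libraries numbered 2 did not deviate together (correlation -0.19), while those numbered 1 and 3 did (0.57 and 0.64).

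As each library was left out, the difference had 3 to 8 genes higher and 0 to 1 lower, the parental knockout 0 to 0 and the resistant knockout 4 to 50. The difference for KDM5B ran from -0.76 to 0.058 as each library was left out, above 0 without parental knockout library 2 (0.058) or resistant library 1 (0.041), and that for KDM5C from -0.022, without parental library 2, to 0.31. Library size alone moved the median difference of all genes from 0.01 to 0.10. With 3 libraries a group and levels under 1 CPM in resistant cells, few counts limit many of the fitted changes.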
